A study of Mus musculus with 6 samples.

Results

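Neural crest and mesenchymal transition transcription factors were followed in mouse melanoma cells with a CRISPR-Cas9 knockout of Spp1 and in Non-targeting control cells. The set was named gene by gene as Zic1, Sox9, Sox4, Ets1, Snai1, Snai2, Zeb1, Zeb2, Twist1 and Twist2. Of these 10 symbols, 8 were matched by gene symbol among the 19213 listed genes, and Twist1 and Twist2 were not analysed here. PolyA RNA was sequenced from 3 Spp1 knockout samples and 3 Non-targeting control samples, and all were taken as 1 batch. No 2 samples carry the same cell line label: knockouts are labelled B16F13 to B16F15 and controls B16F10 to B16F12. A difference between those lines, if they were distinct, cannot be told apart from the knockout. The samples are called biological replicates, and whether a knockout sample was a clone or a pool is not stated.

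The neural crest is a transient embryonic population that leaves the neural tube and gives rise to melanocytes, peripheral glia and much of the face. Zic, Sox and Ets factors help to specify it, and the zinc finger repressors Snai1, Snai2, Zeb1 and Zeb2 and the Twist factors allow its cells to lose epithelial contacts and migrate. In melanoma the repressors are known to switch with cell state, Zeb2 and Snai2 being tied to the differentiated melanocytic state and Zeb1 and Twist1 to the invasive state. Spp1 encodes osteopontin, a secreted ligand of integrins and CD44.

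The target of the knockout was low in every knockout library. Spp1 stood at 2.09, 1.98 and 3.90 scaled reads in the knockout libraries, against 149, 156 and 145 in the control libraries, where a scaled read is a read divided by the size factor of its library (log2 change -5.41 ± 0.25 SE, limma adjusted p = 8.98e-11). Every listed gene had at least 1 read in every library. The libraries held 75438190 to 80206796 reads in knockout and 72717465 to 94314770 in control. All 7 melanocyte markers had values, 4 rising and 1 (Tyr) falling, with sums of 1059657 to 1070434 scaled reads in knockout libraries and 898571 to 914819 in control libraries. Markers of other cell types also moved. The 7 Schwann cell markers summed to 6221 to 6541 in knockout and 16999 to 17221 in control, with 2 of the 6 tested higher and 4 lower. The 4 fibroblast markers with values summed to 630.5 to 732 in knockout and 1465 to 1737 in control, and both tested ones, Pdgfra and Pdgfrb, fell. The 3 macrophage markers with values summed to 84.9 to 89.0 in knockout and 269 to 279 in control, and both tested ones, Cd68 and Lyz2, fell. The 2 endothelial markers with values summed to 608 to 658 in knockout and 78.9 to 81.4 in control, and Vwf, the one tested, rose to 622 in knockout, against 72.1 in control. The 6 smooth muscle markers with values summed to 4526 to 5076 in knockout and 4193 to 4618 in control, 1 being higher and 3 lower. The 2 keratinocyte markers with values, at 188 to 197 in knockout and 181 to 242 in control, and the T cell marker Lck, at 51.7 to 75.2 in knockout and 55.4 to 58.1 in control, did not pass the test. Ptprc, Adgre1, Cd3e, Cdh5, Kdr, Krt5, Dcn and Lum were among the markers not analysed here, and the part of these cell types in the changes below was not tested.

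Of the 8 factors, 7 reached the filter of 10 scaled reads in 3 libraries and were tested within a fit over 15307 genes. Zic1 reached 10 in control libraries only, and Zeb1 in these and knockout 1, so their entry rested on the control values. Spp1, Acta2, Erg and Col11a1 likewise reached 10 in control libraries only, and Notch3 in knockout libraries only. Esrp1 reached 10 in control libraries and knockout 3, so its entry also rested on the control values. Sox9 rose, Zic1, Zeb1 and Zeb2 fell, and Sox4, Ets1 and Snai2 did not pass (limma adjusted p under 0.05). Over all tested genes 63.0% changed, 34.4% higher and 28.6% lower in knockout, so 4 changed factors among 7 is close to the background. The balance over all genes turned with the scaling: 5266 were higher and 4374 lower here, 4473 higher and 5034 lower with equal totals, and 4344 higher and 4593 lower in edgeR on recovered reads. The groups did not overlap for 6 of the 7, beside 67.1% of all tested genes. The median log2 change of the 7 was -0.11, beside 0.03 over all tested genes. The sizes differed widely, from a near loss of Zic1 to a decrease of Zeb2 by 0.11 on the log2 scale. Changes of at least 2-fold were called in 1.63% of tested genes upwards and 5.46% downwards, and Sox9, Zic1 and Zeb1 lay in these ranges. In bulk RNA, fewer cells that express a gene and less of its RNA per cell cannot be told apart.

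**Figure D1:**
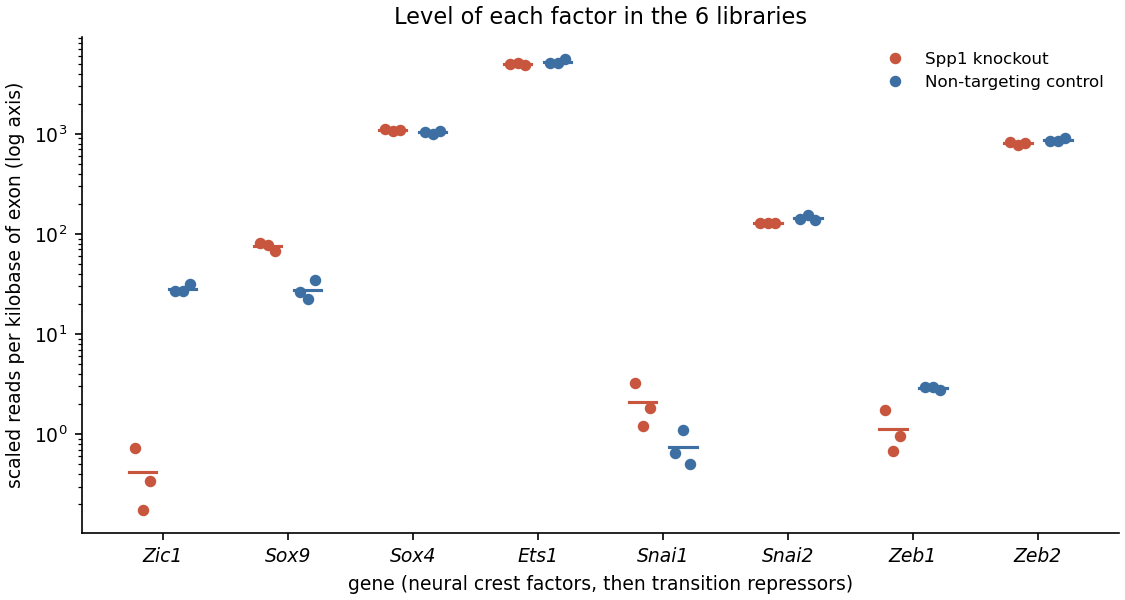
Scaled reads per kilobase of exon on a log axis for the 8 factors, with 1 point per library and the mean as a bar, Spp1 knockout left of Non-targeting control. Zic1 was lower and Sox9 higher in all knockout libraries, while Sox4, Ets1, Snai2 and Zeb2 kept levels within a narrow range.

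Zic1, a zinc finger factor that acts early in the neural plate border and the crest, was nearly lost in knockout. The gene (ENSMUSG00000032368.14, chromosome 9, 91358058 to 91365810, minus strand of mm10) had 4.18, 0.989 and 1.95 scaled reads in the knockout libraries and 154, 153 and 178 in the control libraries. All knockout libraries lay far below all control libraries, at 4, 1 and 2 reads against 147, 171 and 219 reads. The mean was 2.38 ± 1.64 in knockout and 162 ± 14.4 in control (SD, n = 3 each; log2 change -5.70 ± 0.31 SE, limma adjusted p = 4.85e-10). As a ratio of summed reads, corrected for the size factors, knockout over control was 0.0144, with an exact 95% binomial interval of 0.00576 to 0.0299 that covers counting error only. The 25 tested genes on each side of Zic1 had a median log2 change of -0.37, and net of that median Zic1 stood at -5.33.

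The neighbour of Zic1 on chromosome 9 fell with it. Zic4, a related zinc finger factor, is transcribed from the opposite strand, and the RefSeq start sites of the pair lie 3204 bases apart. In the GENCODE annotation Zic4 has 12 transcripts and begins at 91362413, within Zic1 and before the RefSeq start. Which start of Zic4 was used in these cells was not tested. Zic4 had 32.4, 47.5 and 30.3 scaled reads in knockout libraries and 460, 432 and 456 in control libraries, again without overlap. Its mean was 36.7 ± 9.38 in knockout and 449 ± 15.0 in control (SD, n = 3 each; log2 change -3.60 ± 0.15, limma adjusted p = 3.42e-11). The pair shares little exon sequence, 1.05% of the exon length of Zic1 overlapping Zic4. The promoter windows of both genes, from 250 bases before to 50 bases after the RefSeq start on GRCm38.p6, are shown because the pair fell together, with CpG dinucleotides in capitals. The Zic1 window is chr9:91365719-91366018 on the minus strand and the Zic4 window is chr9:91368722-91369021 on the plus strand.
Zic1: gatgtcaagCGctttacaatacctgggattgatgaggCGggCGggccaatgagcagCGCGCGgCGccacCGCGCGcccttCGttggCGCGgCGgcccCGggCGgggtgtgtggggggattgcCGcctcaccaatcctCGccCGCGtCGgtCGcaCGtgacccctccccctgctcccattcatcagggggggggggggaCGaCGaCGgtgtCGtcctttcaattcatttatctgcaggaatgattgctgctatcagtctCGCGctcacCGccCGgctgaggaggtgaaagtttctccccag
Zic4: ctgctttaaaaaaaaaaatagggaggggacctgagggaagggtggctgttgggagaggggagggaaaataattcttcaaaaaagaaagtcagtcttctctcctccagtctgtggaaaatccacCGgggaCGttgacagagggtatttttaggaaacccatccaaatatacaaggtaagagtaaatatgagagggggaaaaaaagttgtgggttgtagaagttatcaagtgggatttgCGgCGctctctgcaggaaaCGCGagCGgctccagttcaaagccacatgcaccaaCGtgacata
The windows differ in CpG content. The Zic1 window holds 31 CpG dinucleotides, a number reached by 10.6% of the 32851 promoter windows, and the Zic4 window holds 8, close to the median of 7. Neither window holds CACCTG, the E-box read by Snai and Zeb factors, AACAAT, a core bound by Sox factors, CCGGAA, bound by Ets factors, or CAGCAGG, part of the Zic motif, on either strand. Over all windows these letters occur in 20.2%, 10.7%, 14.9% and 10.5%, in that order.

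The other Zic pair did not fall. Zic2 and Zic5, which lie head to head on chromosome 14, both rose in knockout. Zic2 averaged 1001 ± 82.1 scaled reads in knockout and 768 ± 44.9 in control, and Zic5 averaged 1515 ± 35.2 in knockout and 1183 ± 73.3 in control (SD, n = 3 each; log2 changes 0.38 ± 0.07 and 0.36 ± 0.05, limma adjusted p = 0.000140 and 2.03e-05). Per kilobase of exon, Zic1 ran at 0.00200, 0.000483 and 0.00109 of Zic2 in knockout libraries and at 0.0961, 0.107 and 0.116 of Zic2 in control libraries. These 2 genes were set beside Zic1 after their values had been seen. Within 1 Mb of Zic1 5 other genes were tested, of which 1 rose and 2 fell, the lower ones being Zic4 and the phospholipid scramblase gene Plscr1 (log2 change -0.50 ± 0.04).

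**Figure D2:**
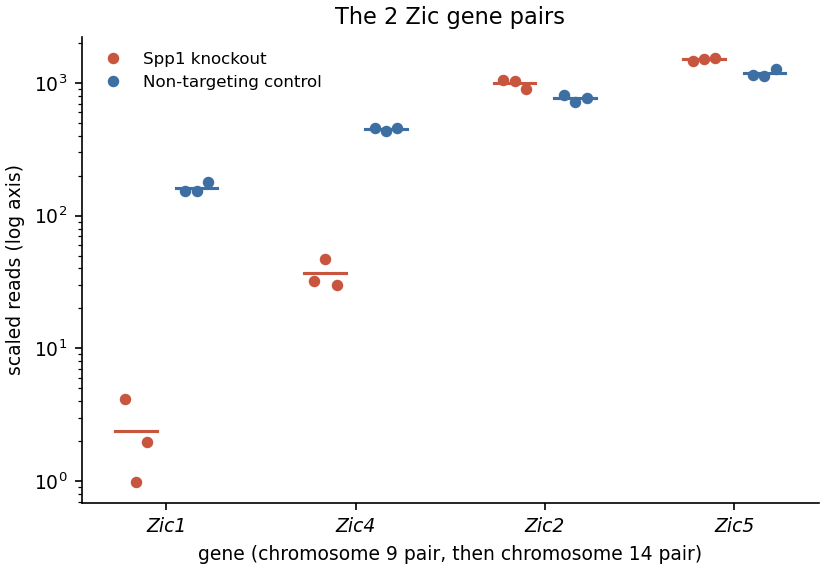
Scaled reads on a log axis for Zic1 and Zic4 on chromosome 9 and for Zic2 and Zic5 on chromosome 14, with 1 point per library and the mean as a bar, Spp1 knockout left of Non-targeting control. The chromosome 9 pair was lower and the chromosome 14 pair slightly higher in all knockout libraries.

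Sox9, an HMG box factor of the crest and of cartilage, was the factor that rose. The gene (ENSMUSG00000000567.5, chromosome 11, 112782224 to 112787760, plus strand) had 336, 322 and 277 scaled reads in knockout libraries and 109, 92.1 and 142 in control libraries. The lowest knockout library was well above the highest control library. The mean was 312 ± 30.7 in knockout and 114 ± 25.6 in control (SD, n = 3 each; log2 change 1.46 ± 0.14, limma adjusted p = 5.00e-07). The relative spread was larger than for the abundant factors, 9.85% of the mean in knockout and 22.4% in control. Among 8 tested genes within 1 Mb, 4 rose and 2 fell, and the median of the 25 genes on each side was 0.03 on the log2 scale.

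Genes that Sox9 is known to activate in cartilage moved in both directions. Of 11 listed chondrocyte genes 9 had values and 8 were tested, 3 rising, 4 falling and 1 not passing. Their median log2 change was -0.37, beside 0.03 over all tested genes, of which 34.4% rose and 28.6% fell. As 63.0% of all tested genes changed, these counts alone do not set the Sox9 targets apart. Matn3, a cartilage matrilin, rose to 411 ± 14.6 scaled reads in knockout, against 105 ± 1.63 in control, and Col9a1, a collagen IX chain, to 3137 ± 84.8, against 1334 ± 38.3 (SD, n = 3 each; log2 changes 1.95 and 1.23). Col2a1, the main cartilage collagen, had 70.3 ± 7.77 in knockout and 131 ± 19.5 in control, and Col11a1, a collagen XI chain, 6.64 ± 2.12 in knockout and 18.4 ± 4.62 in control (log2 changes -0.88 and -1.36).

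Sox4, an HMG box factor linked to progenitor cells and to epithelial-mesenchymal transition, differed by less than the test could call. The gene (ENSMUSG00000076431.4, chromosome 13, 28948919 to 28953713, minus strand) had 5353, 5071 and 5184 scaled reads in knockout libraries and 5011, 4825 and 5154 in control libraries. The groups overlapped, and the log2 change was 0.06 ± 0.04 (limma adjusted p = 0.180). The 25 tested genes on each side had a median of -0.21, and net of that median Sox4 was higher by 0.27 (limma adjusted p = 1.18e-05). That median was subtracted as a fixed number, so this p-value leaves out the spread of the neighbours. The 2 tested genes within 1 Mb of Sox4 had a median of the other sign, 0.12. A predicted noncoding gene on the other strand, Gm26735, covers 54.6% of the exon length of Sox4. Without a stated strand setting it is not known how reads in the shared part were counted. If they were left out, the level of Sox4 per kilobase would be understated and ratios to it overstated. Gm26735 itself was listed at 3.14 to 6.92 scaled reads in knockout libraries and 6.27 to 9.84 in control libraries.

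Within libraries the relation of Sox9 to Sox4 shifted with Sox9. Per kilobase of exon, Sox9 ran at 0.0727, 0.0737 and 0.0620 of Sox4 in knockout libraries and at 0.0251, 0.0221 and 0.0320 in control libraries. Sox10, the Sox factor that maintains the melanocyte lineage, averaged 25717 ± 1757 scaled reads in knockout and 26568 ± 1844 in control (SD, n = 3 each; log2 change -0.05 ± 0.06, limma adjusted p = 0.518), and was set beside them after its value had been seen.

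Ets1, a winged helix-turn-helix factor that marks the cranial crest and is active in melanoma, was the most abundant of the factors per kilobase. The gene (ENSMUSG00000032035.15, chromosome 9, 32636221 to 32757820, plus strand) had 42584, 43036 and 41619 scaled reads in knockout libraries and 43401, 43576 and 47075 in control libraries. Every knockout library was below every control library, by little, control 3 being the highest. The log2 change was -0.07 ± 0.03 and did not pass (limma adjusted p = 0.0730). It passed with equal library totals, with TMM factors and in edgeR on recovered reads (adjusted p = 0.00294, 0.0298 and 0.0238). It also passed without control 1 (adjusted p = 0.0353) and net of the neighbours' median of 0.19 (adjusted p = 1.06e-05). The last of these fits took that median as a fixed number, leaving out the spread of the neighbours. The log2 changes in these settings lay between -0.26 and -0.09.

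The Snai repressors bind E-boxes and silence epithelial genes such as Cdh1. Snai2, the main one in melanocytes, had 257, 260.2 and 263 scaled reads in knockout libraries and 285, 316 and 278 in control libraries (ENSMUSG00000022676.6, chromosome 16, 14705852 to 14709385, plus strand). The knockout libraries were nearly equal to one another and all below the control libraries, with control 2 standing highest. The log2 change of -0.17 ± 0.08 did not pass (limma adjusted p = 0.0946), and did with equal totals (adjusted p = 0.0375) and without trended and robust variance (adjusted p = 0.0412).

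Snai1 was close to the detection limit. The gene (ENSMUSG00000042821.7, chromosome 2, 167538195 to 167542814, plus strand) had 5, 2 and 3 reads in knockout libraries and 1, 2 and 1 in control libraries, which is 5.23, 1.98 and 2.93 scaled reads in knockout and 1.04, 1.79 and 0.814 in control. It was below the filter, and the ratio of summed reads corrected in the same way was 2.76 with an exact 95% binomial interval of 0.797 to 12.1. With no filter its log2 change of 0.94 did not pass (limma adjusted p = 0.0796). Its promoter window holds 1 match to CACCTG, 126 bases before the start, the one match among the 7 windows of the 4 factors that have an entry.

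Zeb1, the zinc finger homeodomain repressor of the invasive melanoma state, was low in control and lower in knockout. The gene (ENSMUSG00000024238.13, chromosome 18, 5591860 to 5775467, plus strand) had 17.8, 6.92 and 9.76 scaled reads in knockout libraries and 30.3, 30.4 and 28.5 in control libraries. The groups did not overlap, and knockout 1 stood apart from the other knockout libraries with the highest value. The mean was 11.5 ± 5.63 in knockout and 29.7 ± 1.08 in control (SD, n = 3 each; log2 change -1.39 ± 0.30, limma adjusted p = 0.000905). The summed reads were 34 in knockout and 98 in control, and their ratio corrected for the size factors was 0.383 with an exact 95% binomial interval of 0.252 to 0.571.

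Zeb2, the relative of Zeb1 that is tied to melanocyte differentiation, was abundant in both groups. The gene (ENSMUSG00000026872.16, chromosome 2, 44983632 to 45117395, minus strand) had 16562, 15447 and 16083 scaled reads in knockout libraries and 16735, 16957 and 18113 in control libraries. The highest knockout library, knockout 1, lay just below the lowest control library. The mean was 16031 ± 559 in knockout and 17268 ± 740 in control (SD, n = 3 each; log2 change -0.11 ± 0.04, limma adjusted p = 0.0193). The call was lost without control 3 or knockout 2, without trended and robust variance and in DESeq2 on recovered reads (adjusted p = 0.0658, 0.109, 0.101 and 0.0869). Within 1 Mb of Zeb2 5 other genes were tested, of which 3 fell and none rose. Its antisense transcript Zeb2os, which shares 48.2% of its exon length with other genes, chiefly Zeb2, and was looked up after the values of Zeb2 had been seen, averaged 151 ± 14.8 in knockout and 276 ± 15.8 in control (log2 change -0.87 ± 0.10, limma adjusted p = 2.38e-06).

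Zeb2 exceeded Zeb1 in every library. Per kilobase of exon, Zeb2 stood 479, 1148 and 848 times above Zeb1 in knockout libraries and 284, 287 and 327 times above it in control libraries. All knockout ratios were above all control ratios. Snai2 likewise exceeded Snai1, by 39.5, 105 and 71.9 times in knockout libraries and by 219, 142 and 274 times in control libraries, with Snai1 at only 1 to 5 reads.

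**Figure D3:**
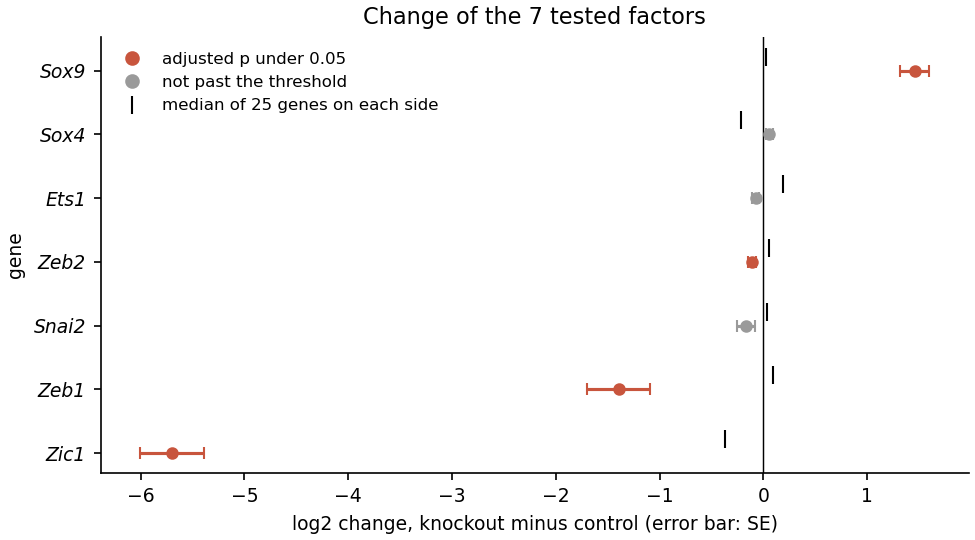
Log2 change, knockout minus control, of the 7 tested factors with its SE, in colour where the limma adjusted p was under 0.05, and the median change of the 25 tested genes on each side as a black tick. Zic1 at -5.70, Zeb1 at -1.39 and Sox9 at 1.46 lay away from the other factors and from their neighbours' medians.

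Ordered by level per kilobase of exon, the factors fell into abundant and scarce genes. In control libraries Ets1 stood at 5272 ± 245 scaled reads per kilobase, Sox4 at 1042 ± 34.4, Zeb2 at 866 ± 37.1 and Snai2 at 145 ± 9.84 (SD, n = 3). Zic1 at 28.4 ± 2.53 and Sox9 at 27.7 ± 6.20 did not differ beyond their spread, and Zeb1 at 2.90 ± 0.105 and Snai1 at 0.75 ± 0.314 were last. In knockout libraries the first 4 kept their order, with Ets1 at 5004 ± 85.4, Sox4 at 1085 ± 29.6, Zeb2 at 804 ± 28.0 and Snai2 at 129 ± 1.29. Sox9 followed at 75.4 ± 7.43, and Snai1 at 2.08 ± 1.03, Zeb1 at 1.12 ± 0.549 and Zic1 at 0.417 ± 0.288 were last. In knockout Zeb1 lay within the spread of Snai1, and its lowest library, at 0.675, was below the highest library of Zic1, at 0.735. Exon lengths are the union over all annotated transcripts, 19942 bases for Zeb2 with 29 transcripts and 1621 for Snai1 with 1, so levels of genes with many transcripts may be understated.

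The 3 genes most correlated with Sox9 and with Zic1 over the 6 libraries were looked up. The groups did not overlap for 67.1% of tested genes, so these ranks cannot tell whether crest factors vary together. Among genes with a mean of at least 100 in either group, Foxm1, a mitotic forkhead factor, Tln1, talin, and Sufu, a Hedgehog pathway inhibitor, had the highest Pearson correlation with Sox9 (r = 0.9997, 0.9997 and 0.9994 over 6 libraries, log2 scale). Hspa4l, a heat shock protein gene, Mmgt2 and the tetraspanin Tspan7 were closest to Zic1 (r = 0.9993, 0.9992 and 0.9988). The points share their libraries and the difference between the groups. In knockout Zic1 had 4, 1 and 2 reads, so the ranking of genes beside it is limited by counting error. The log2 changes of these genes were much smaller, from 0.38 to 0.44 for the first set and from -0.95 to -0.23 for the second.

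Family relatives of the factors changed in both directions. Of 20 listed relatives 11 had values and 9 were tested, 6 rising, 2 falling and 1 not passing, with a median log2 change of 0.31, beside 0.03 over all tested genes, of which 34.4% rose and 28.6% fell. Whether the relatives differ from other genes was not tested. Ets2, the closest relative of Ets1, rose to 1270.3 ± 35.7 scaled reads in knockout, against 816 ± 65.7 in control (SD, n = 3 each; log2 change 0.64 ± 0.06, limma adjusted p = 1.98e-07), and the ETS repressor Etv6 rose by 0.41. The genes that fell were Zic4 and Erg, an ETS factor of endothelium, which had 2.66 ± 0.494 in knockout and 12.8 ± 2.52 in control.

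Other regulators of the neural crest moved in both directions. Of 30 listed genes 22 had values and 19 were tested, 8 rising and 5 falling, with a median log2 change of 0.01. Thus 42.1% were higher and 26.3% lower, near the 34.4% and 28.6% over all tested genes. The split was 7 higher and 7 lower with equal totals, 6 and 7 net of neighbours, 5 and 6 in edgeR on recovered reads, and 8 and 3 without control 1. Nr2f2, a nuclear receptor active in crest cells, rose to 8876 ± 309 scaled reads in knockout, against 4200.2 ± 228 in control (SD, n = 3 each; log2 change 1.08 ± 0.04, limma adjusted p = 1.18e-11). The homeobox gene Dlx2 rose by 0.74 and Dlx6 fell by 0.53 on the log2 scale, and Id1, an inhibitor of helix-loop-helix factors, fell by 0.45. Dlx2 and Id1 did not pass in DESeq2 on recovered reads (adjusted p = 0.130 and 0.0573), nor did Id1 without control 1 or knockout 1 (limma adjusted p = 0.0705 and 0.0524).

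Other regulators of epithelial-mesenchymal transition changed in both directions. Of 23 listed genes 17 had values and 11 were tested, 4 rising and 7 falling, with a median log2 change of -0.27. As shares, 36.4% were higher and 63.6% lower, beside 34.4% and 28.6% over all tested genes. Net of neighbours 4 rose and 4 fell. Klf8, a zinc finger repressor, fell to 19.9 ± 8.42 scaled reads in knockout, against 85.1 ± 18.2 in control (SD, n = 3 each; log2 change -2.12 ± 0.30, limma adjusted p = 3.79e-05). Esrp1, a splicing regulator of epithelia, averaged 7.25 ± 5.63 in knockout and 15.4 ± 2.54 in control, with overlapping groups (SD, n = 3 each; limma adjusted p = 0.0211). Its call was lost in edgeR and DESeq2 on recovered reads, without trended and robust variance and without control 1, control 3, knockout 1 or knockout 2 (adjusted p = 0.139, 0.302, 0.0809, 0.0601, 0.0643, 0.102 and 0.0724). Grhl1, an epithelial grainyhead factor, rose by 0.56 on the log2 scale. In DESeq2 on recovered reads its change was 0.51 and did not pass (adjusted p = 0.161), while edgeR on those reads called it (adjusted p = 0.0414). Qk, a splicing regulator, rose by 0.55 in a stretch of chromosome 17 whose neighbours had a median of 0.45.

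Epithelial genes that the repressors are known to silence did not move one way. Of 35 listed genes 20 had values and 12 were tested, 6 rising and 4 falling, and in edgeR on recovered reads 5 rose and 6 fell. Their median log2 change was 0.33, beside 0.03 over all tested genes, of which 34.4% rose and 28.6% fell. With 63.0% of all tested genes changed, these counts alone do not set epithelial genes apart. Cdh1, the epithelial cadherin repressed by Snai and Zeb factors, fell to 28.9 ± 12.5 scaled reads in knockout, against 133 ± 8.44 in control (SD, n = 3 each; log2 change -2.27 ± 0.29, limma adjusted p = 4.32e-05). Spint1, an inhibitor of membrane proteases, fell by 1.42 on the log2 scale. Cgn, which encodes the tight junction protein cingulin, rose by 0.95, and Ddr1, a collagen receptor kinase, by 0.57.

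Mesenchymal genes also divided. Of 27 listed genes 24 had values and 22 were tested, 7 rising and 9 falling, with a median log2 change of 0.05. That is 31.8% higher and 40.9% lower, beside 34.4% and 28.6% over all tested genes. Acta2, smooth muscle actin, and S100a4, a calcium-binding protein of motile cells, fell by 3.95 and 3.82 on the log2 scale, S100a4 sharing 51.7% of its exon length with Gm42674. Col1a2, a collagen I chain, and Sparc, a matricellular protein, rose by 2.54 and 1.30. The other collagen I chain, Col1a1, named after its values were seen, fell to 36.8 ± 5.27 scaled reads in knockout, against 490 ± 61.2 in control (SD, n = 3 each; log2 change -3.70 ± 0.13, limma adjusted p = 6.73e-12).

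Signals that act upstream of the factors were changed in both directions. Of 44 listed genes 40 had values and 36 were tested, 14 rising and 17 falling, with a median log2 change of -0.10. Higher genes were 38.9% and lower genes 47.2%, beside 34.4% and 28.6% over all tested genes. Net of neighbours 17 rose and 12 fell. Of the Notch receptors with values, the scarcer Notch3 and Notch1 changed in opposite directions. Notch3 rose to 33.8 ± 2.43 scaled reads in knockout, against 2.63 ± 1.38 in control, and Notch1 fell to 41.4 ± 4.74 in knockout, against 279 ± 50.2 in control (SD, n = 3 each; log2 changes 3.35 ± 0.36 and -2.72 ± 0.15, limma adjusted p = 7.59e-07 and 4.42e-10). Notch2, the most abundant of them, averaged 4008 ± 148 in knockout and 3570 ± 421 in control and did not pass, with overlapping groups (SD, n = 3 each; log2 change 0.17 ± 0.07, limma adjusted p = 0.0583). It was added after its values were seen. Tgfb1, a classical inducer of Snai and Zeb genes, fell by 0.67 on the log2 scale. Ppp2r1a, a scaffold of phosphatase 2A, rose by 0.71 where its neighbours on chromosome 17 had a median of 0.44.

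Differentiation genes downstream of the crest programme were tested in full. All 16 listed genes had values, 7 rising, 5 falling and 4 not passing, with a median log2 change of 0.03. The shares were 43.75% higher and 31.25% lower, beside 34.4% and 28.6% over all tested genes. Whether any list differs from other genes was not tested. Mreg and Gpnmb, both of the melanosome, rose by 0.42 and 0.41 on the log2 scale, and Trpm1, a cation channel, and Oca2, a melanosomal transporter, fell by 1.13 and 1.07.

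**Figure D4:**
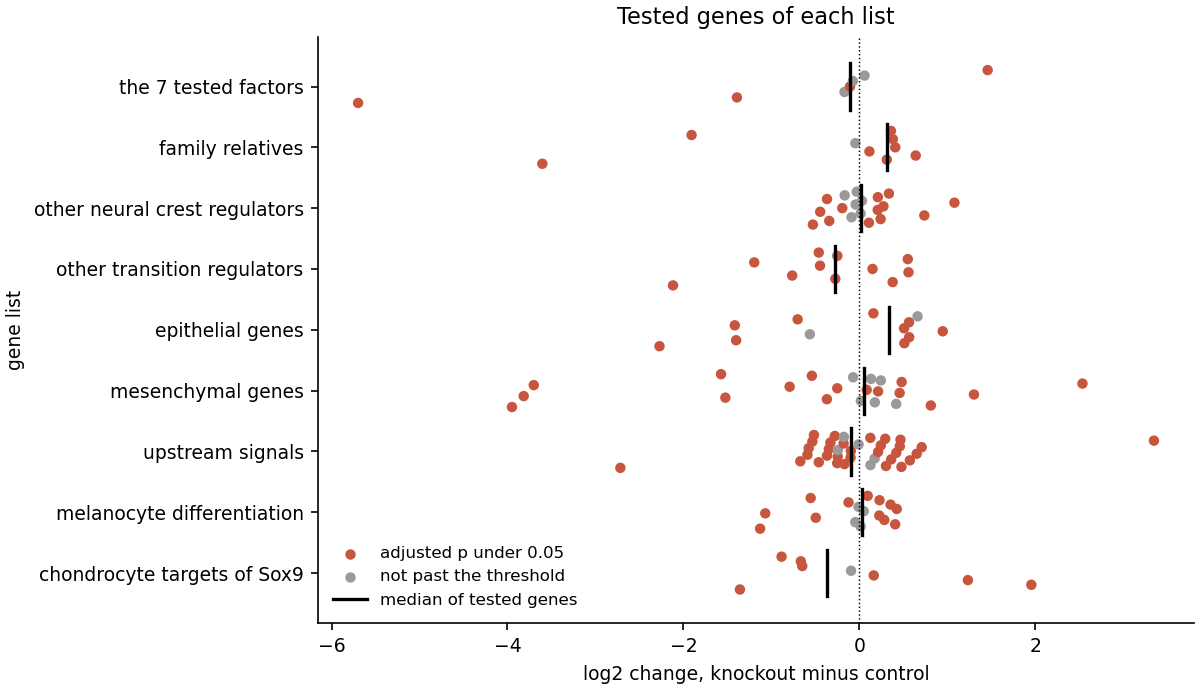
Log2 change, knockout minus control, of each tested gene of the 7 factors and of the 8 related lists, in colour where the limma adjusted p was under 0.05, with the median of each list as a black line. The medians lay between -0.37 and 0.33, while single genes reached from -5.70 for Zic1 to 3.35 for Notch3.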

How the data were processed

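PolyA RNA of 6 samples was read from both ends (per the labels' protocols), and the titles gave each sample its group and number. The deposited table holds signal values that the authors normalized with DESeq, per the series' design text. Each column is made of whole multiples of 1 number, so the values were read as counts divided by 1 size factor per library. Per the submitters' processing notes, cutadapt 1.6, STAR 2.5.0a, HTSeq 0.5.3, DESeq and mm10 were used. The strand setting is not given in the sources used here.

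Values were taken as log2(value + 1), genes with at least 10 in at least 3 libraries were kept, and the 2 groups were tested by limma 3.58.1 in R 4.3.3. The test was two-sided with a trended, robust variance, and p-values were adjusted by Benjamini-Hochberg over all 15307 genes. The scale understates changes of low genes. Reads were recovered by dividing each column by its smallest value, and 100% of values came out whole within 0.001. Knockout 2, where a read is worth 0.989 scaled reads, the value closest to 1, was left out of edgeR 4.0.16 and DESeq2 1.42.0, which used the other 5 libraries, and its read numbers rest on its smallest value. On these reads edgeR called 8937 genes. Libraries of a group correlated at r = 0.996 to 0.997 over genes and differed by more than sampling noise, so each counts as 1 sample. No label says that they came from separate cultures, so p-values measure only the spread between these samples, which may be technical.

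Positions and exon lengths came from GENCODE M21 on GRCm38 (19121 of 19213 genes matched) and promoters from RefSeq on GRCm38.p6. The factors and lists were chosen with earlier results of these data known. Named are all factors, Spp1, in each list up to 2 genes that rose and 2 that fell by the largest change, and the 3 genes most correlated with the factors of largest rise and fall; others are said to have been named after their values were seen. The fit was tested on simulated data.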

Additional observations from a re-analysis of the deposited data

How the results depend on the processing

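The 7 factors and the list genes named by largest change kept their direction under all 16 other settings. Of these values 600 stayed on their side of the threshold, while 8 newly passed and 16 no longer did. Genes named after their values had been seen, such as Sox10, Zic2, Zic5, Col1a1 and Notch2, were not followed through these settings. Sox9, Zic1 and Zeb1 passed in all 16, with log2 changes of 1.31 to 1.63, -6.06 to -4.52 and -1.73 to -1.11. The number of changed factors ranged from 3 to 6 around 4. The 8 lists kept a number of changed genes within 1.5 times the one reported, with the exception of other neural crest regulators in DESeq2 on recovered reads, where 8 genes in place of 13 changed and the cause was not tested. Without 1 library in turn, 8929 to 9491 genes changed in place of 9640. Same-numbered libraries of the groups did not deviate together (r = -0.11, -0.24 and -0.04), and differently numbered pairs ranged from -0.12 to 0.21. With 3 libraries per group these values cannot settle whether a shared number marks a shared preparation. With the replicate block 9289 genes changed, and 4 factors, as without it. Ratios of summed reads and counts within 1 Mb were added after the data had been seen. Depth limits Snai1 and the knockout level of Zic1, which rest on 1 to 5 reads per library. The knockout levels of Spp1, at 2 to 4 reads, and of Erg, at 2.09 to 2.97 scaled reads, are limited likewise. So is the control level of Notch3, at 1.04 to 3.58 scaled reads.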
